A study of Mus musculus with 4 samples.

Results

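The cyclins, cyclin-dependent kinases (CDKs), CDK inhibitors, Rb family, E2F factors, CDC25 phosphatases, Wee1 and Myc factors were examined in E14 mouse embryonic stem cells. The genes were chosen by name, as a list of 41 symbols, and all probes carrying one of these symbols in the platform annotation were taken. Probes were found for 40 of the 41 genes, 87 probes of the 45281 on the array; Ccnb1 was not analysed here. The 40 genes are among 19057 genes with a named probe. The cells, an established line, were grown in medium with serum and the cytokine LIF, which keeps them undifferentiated. In the ATRA group (2 arrays) the cells received all-trans retinoic acid, the active form of vitamin A in development, for 2 hours. In the DMSO group (2 arrays) they received the solvent for the same time. The line, the medium and the single-colour Illumina bead array were common to both groups, and the sources used here state no ATRA dose. The DMSO arrays are also labelled untreated and wt, and the treatment label was followed.

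Progress through the cell cycle is driven by CDKs, which are active only when bound to a cyclin. D-type and E-type cyclins act before and at the entry into S phase, A-type cyclins in S and G2, and B-type cyclins at mitosis. The pocket proteins of the Rb family hold E2F factors in check until CDKs phosphorylate them, and the E2Fs control genes of DNA replication and of the cycle itself. Mouse embryonic stem cells are known for a short G1 phase and for weak Rb control in it, with retinoic acid known to slow their growth as they differentiate over days.

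E2f2, one of the activator E2Fs, was the only member gene that passed the test, and it was higher with ATRA. Its first probe, the brightest of its probes, read 645 and 579 on the ATRA arrays, against 446 and 430 on the DMSO arrays (deposited intensity, linear scale). Its second probe read 530 and 548 on the ATRA arrays, against 428 and 418 on the DMSO arrays. On both probes each ATRA array lay above each DMSO array. After background correction and quantile normalization the first probe averaged 9.06 ± 0.13 with ATRA and 8.49 ± 0.04 with DMSO (mean log2 intensity ± SD, n = 2 each). It rose by 0.57 on the log2 scale, 1.48-fold (95% interval 1.30 to 1.69, SE 0.09; limma adjusted p = 0.00075). The second probe averaged 8.85 ± 0.04 with ATRA and 8.43 ± 0.03 with DMSO (n = 2 each) and rose 1.33-fold (95% interval 1.17 to 1.52; limma adjusted p = 0.013). The remaining E2f2 probe, of the same annotated transcript, was detected on 0 of 4 arrays, at 101 and 91.3 with ATRA, against 91.8 and 105 with DMSO. The probes of a gene share the same 4 RNA samples, so they do not replicate the treatment.

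**Figure D1:**
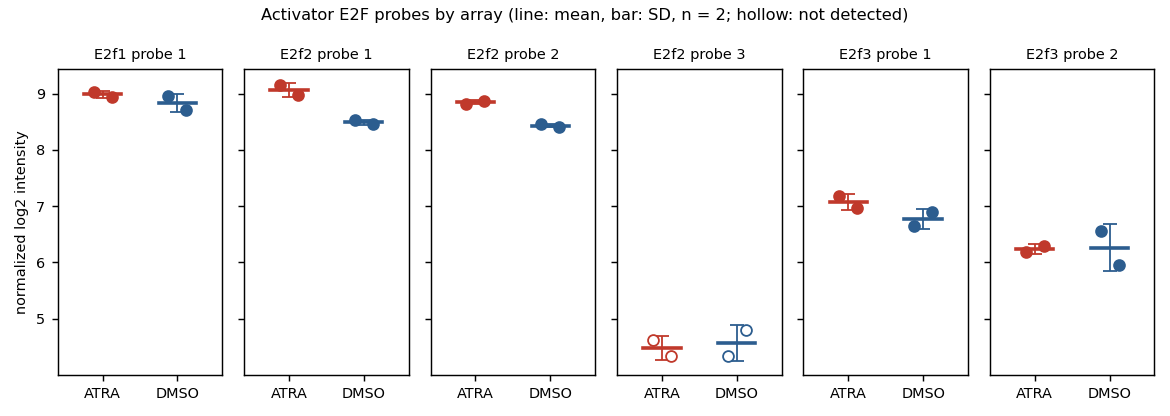
Normalized log2 intensity (vertical axis) of each probe of E2f1, E2f2 and E2f3 on the 2 ATRA arrays (left in each panel) and the 2 DMSO arrays (right); lines are means, bars are SDs and hollow points were not detected. Both detected E2f2 probes have their ATRA arrays above their DMSO arrays, by 0.57 and 0.42 on average, while the second E2f3 probe has its groups overlapping; levels of different probes are not comparable.

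The E2f2 call rested on few arrays. With an array left out, 1 group has a single array, which is assumed to vary like the other group, and the test has less information. Without ATRA replicate 1 both probes missed the threshold, with changes of 0.48 and 0.44 (limma adjusted p = 0.068 and 0.13). Without ATRA replicate 2 the first probe kept its call (change 0.66, adjusted p = 0.00060) and the second did not (0.39, adjusted p = 0.27). Without the intensity trend in the variance estimate both also missed it (adjusted p = 0.10 and 0.18). Over the 14 alternative settings the adjusted p ran from 7.1e-07 to 0.10 for the first probe, which passed in 12, and from 0.0016 to 0.27 for the second, which passed in 11. The change itself stayed between 0.48 and 0.66 for the first probe and between 0.35 and 0.44 for the second.

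**Figure D2:**
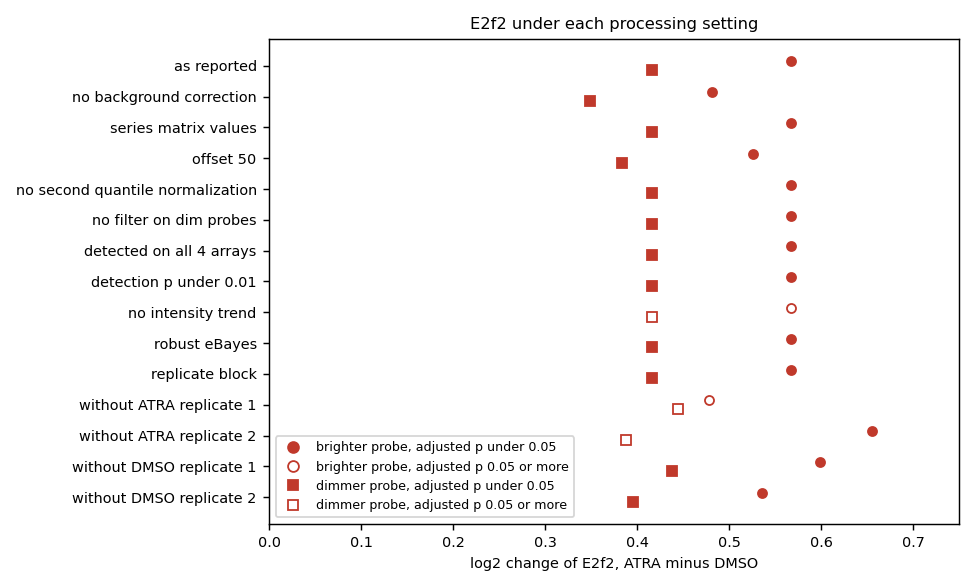
Log2 change of E2f2, ATRA minus DMSO (horizontal axis), by its first probe (circles, brighter) and second probe (squares, dimmer) in each processing setting (rows); filled symbols have a limma adjusted p under 0.05. All symbols lie above 0, and the hollow ones are both probes without the intensity trend and without ATRA replicate 1, and the second probe without ATRA replicate 2.

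The sequence upstream of E2f2 is shown because this gene carried the change. RefSeq windows (GRCm38.p6) of 250 bases before to 50 bases after an annotated start were matched by symbol for 30 of the 41 genes, which gave 36 windows. E2f2 has a pair of annotated starts, and the 250 bases before the first of them (chr4:136172024-136172273, plus strand) hold no match to an E2F site in either direction.
E2f2 upstream: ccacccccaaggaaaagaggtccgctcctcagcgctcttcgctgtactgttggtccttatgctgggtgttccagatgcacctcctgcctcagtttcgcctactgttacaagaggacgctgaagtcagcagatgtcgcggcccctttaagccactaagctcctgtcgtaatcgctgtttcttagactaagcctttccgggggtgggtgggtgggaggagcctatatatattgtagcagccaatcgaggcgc
The motifs searched, on both strands, were the E2F sites TTTCCCGC, TTTCGCGC, TTTGCCGC and TTTGGCGC. Such a site was found in 9 of the 36 member windows (25.0%), against 2.26% of all 32851 windows of that length. The 9 genes are shown with 30 bases around their sites, read along the strand of the gene, with the matched letters in capitals.
E2f2: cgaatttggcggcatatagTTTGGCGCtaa
E2f3: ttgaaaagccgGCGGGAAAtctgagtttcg
E2f7: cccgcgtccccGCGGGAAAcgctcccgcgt
Cdk1: tttccgctcccTTTCGCGCtctgcgctccc
Cdk2: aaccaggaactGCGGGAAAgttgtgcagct
Rbl1: aagaaggcgatTTTCGCGCgctttgtcgcg
Cdkn2a: ctctgggaagcTTTCCCGCgcgactgggga
Cdc25a: ggtgaattccgTTTGGCGCcaactaggaaa
Mycn: gctTTTGGCGCGAAAggcTTTGGCGCctcc
The sites began 131 bases before the start in Cdk1 (chr10:69353025-69353054, minus strand), 140 in Cdk2 (chr10:128705173-128705202, minus strand), 99 in Cdkn2a (chr4:89294700-89294729, minus strand), 18 in Rbl1 (chr2:157204534-157204563, minus strand), 11 in E2f3 (chr13:29986056-29986085, minus strand), 198 in E2f7 (chr10:110745230-110745259, plus strand) and 67 in Cdc25a (chr9:109875501-109875530, plus strand). In E2f2 the site lies 40 bases after the first start (chr4:136172294-136172323, plus strand). E2f2, Cdkn2a and E2f3 each have another annotated start, and its window holds no match to an E2F site. Mycn has 3 matches that begin 183 bases before its start (chr12:12941993-12942022, minus strand), the first pair of them overlapping on opposite strands.

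Retinoic acid receptors bind direct repeats, and pairs of AGGTCA or AGTTCA in the same direction with 5 or 2 bases between them were searched in the same windows. They were found in 0 of the 36 member windows for either spacing, and in 0.0396% of all windows for each, which says only that these letters are not in these windows. The cell cycle homology motif TTTGAA was in 9 member windows (25.0%), against 17.9% of all windows. The E-box CACGTG, the motif of Myc and its partners, was in 5 (13.9%), against 7.15% of all windows, with 4 matches in the window of Cdk4.

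A probe entered the test if its detection p was under 0.05 on 2 or more arrays, counted over both groups together. Of the 87 member probes, 53 were detected on all 4 arrays, 28 on none and 6 on some. The test kept 56 of them, which covered 30 genes. Of the 10 genes left out, 8 were detected on no array by any probe, and Cdkn2c and Wee1 on 1 array each. Of these 56 probes, 2 passed a limma adjusted p of 0.05, both for E2f2 and both higher with ATRA. Over all 19112 kept probes 1.58% passed, and 1.26% passed as higher with ATRA. By brightest probe 1 of 30 member genes passed, against 1.82% of 10194 genes. As lower with ATRA, 0 member probes passed, against 0.324% of all kept probes. At an unadjusted p under 0.05, 0 member probes were lower, against 5.3% of all kept probes. At that level 5 member probes were higher, against 6.27% of all kept probes, which makes 11.6% in both directions together. The ATRA and DMSO arrays did not overlap on 25 of the 56 member probes, against 40.8% of all kept probes. The shares of probes that were higher or did not overlap lie near the background. The share lower at an unadjusted p under 0.05 lies below it, on few probes. The share of calls rests on 1 gene. Without the 2 E2f2 probes, 3 of 54 member probes had an unadjusted p under 0.05 (limma), all higher.

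The member probes were evenly divided in sign, with 28 higher and 28 lower with ATRA, against 9195 and 9917 of all kept probes. By gene 17 were higher and 13 lower, against 4965 and 5229 of all kept genes. The median change of the 30 genes was 0.02 on the log2 scale, against -0.004 for all kept genes, with a range of -0.23 (E2f7) to 0.57 (E2f2). The 95% interval lay within a 1.5-fold change in either direction for 52 of the 56 probes (92.9%), against 90.2% of all kept probes. The exceptions were both E2f2 probes, the Cdkn2d probe and the dimmest kept Ccnd3 probe, whose intervals reached past it. The deposited intensities were already equalized between arrays, so a shift shared by most transcripts could not be seen. In bulk RNA, fewer cells in a phase of the cycle and less RNA per cell cannot be told apart.

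**Figure D3:**
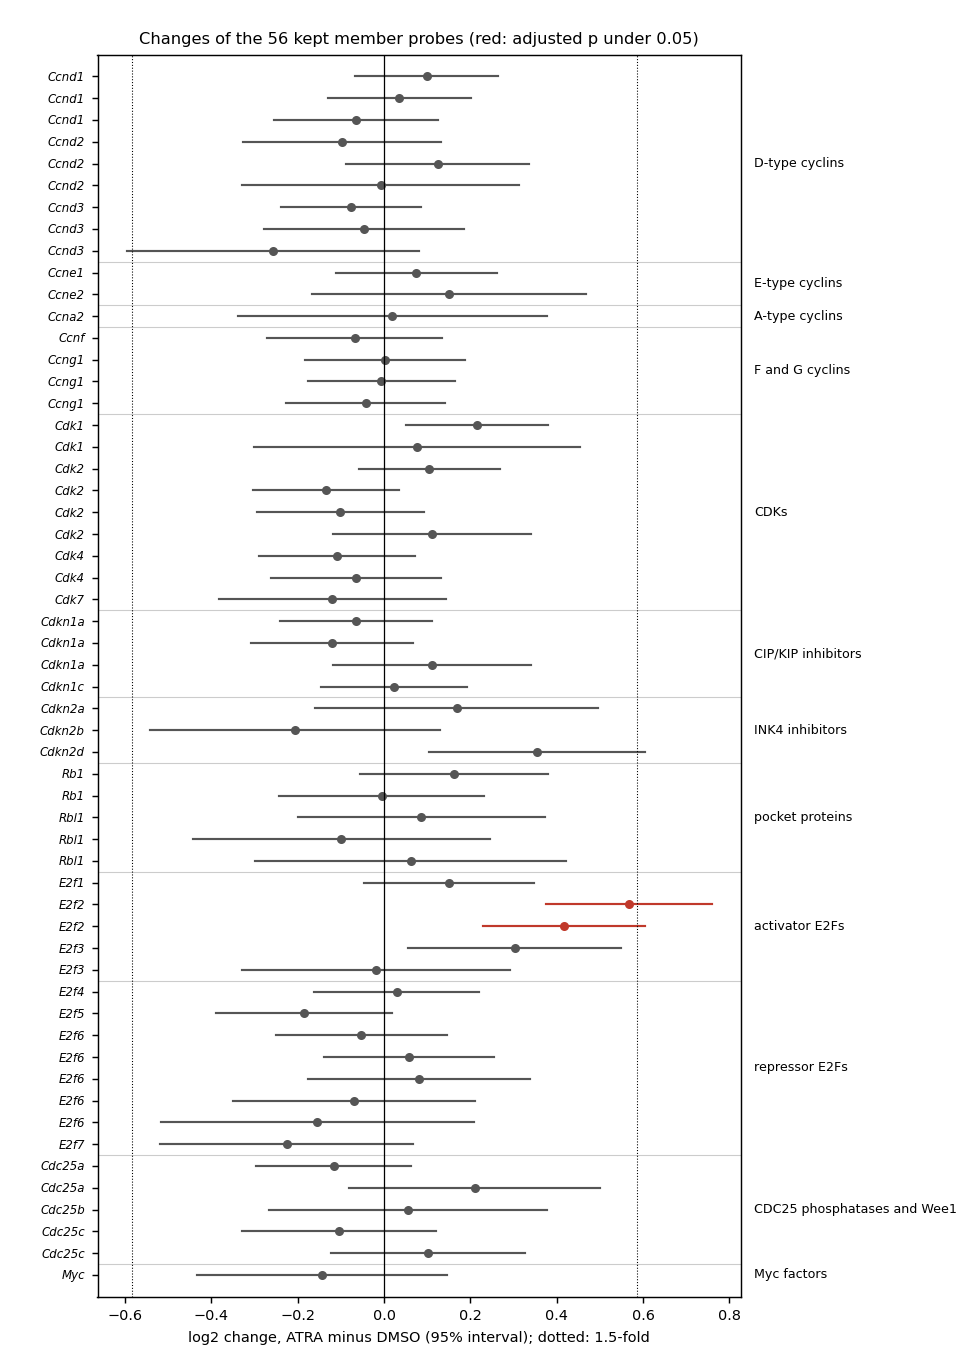
Log2 change, ATRA minus DMSO (horizontal axis), of each of the 56 kept member probes (rows, grouped by family), with 95% limma intervals; dotted lines mark a 1.5-fold change and red marks an adjusted p under 0.05. Both E2f2 probes are red, and all other points lie between -0.26 and 0.35.

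The other activator E2Fs were higher with ATRA in value, without passing. E2f3 read 223 and 203 on the ATRA arrays, against 178 and 197 on the DMSO arrays, by its brighter probe. Its groups did not overlap, and the change was 0.30 (95% interval 0.06 to 0.55, limma adjusted p = 0.29). Its other probe, of the same annotated transcript, read 150 and 156 with ATRA, against 172 and 140 with DMSO, with a change of -0.02. Without DMSO replicate 2 the brighter E2f3 probe passed (change 0.43, adjusted p = 0.022), and over all alternatives its adjusted p ran from 0.022 to 0.95. E2f1, the best studied activator, read 599 and 570 with ATRA, against 573 and 498 with DMSO. Its arrays overlapped, and its change was 0.15 (95% interval -0.05 to 0.35, limma adjusted p = 0.59). Whether E2f2 differed from E2f1 or E2f3 in its change was not tested.

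The repressor E2Fs did not pass, and 3 of the 4 kept genes were lower in value. E2f4, which acts with pocket proteins in resting cells, read 637 and 733 on the ATRA arrays, against 674 and 667 on the DMSO arrays, so the ATRA arrays lay on either side of the DMSO arrays. E2f5, its close relative, read 333 and 371 with ATRA, against 383 and 395 with DMSO, and did not overlap (change -0.18, 95% interval -0.39 to 0.02, limma adjusted p = 0.50). E2f7, an atypical E2F that represses E2F targets, read 129 and 142 with ATRA, against 151 and 139 with DMSO (change -0.23, adjusted p = 0.59). E2f6, a repressor that acts without pocket proteins, had 5 kept probes with changes of -0.15 to 0.08. The dimmest of these read 104 and 104 with ATRA, not detected on either array, against 107 and 109 with DMSO, detected on both. It entered the test through the DMSO arrays alone and did not pass (limma adjusted p = 0.82). E2f8, the other atypical E2F, was detected on 0 of 4 arrays.

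Among the pocket proteins, Rb1 and Rbl1 were kept and neither passed. Rb1, the retinoblastoma protein gene, read 241 and 259 on the ATRA arrays, against 227 and 235 on the DMSO arrays. Its groups did not overlap, with a change of 0.16 (95% interval -0.06 to 0.38, limma adjusted p = 0.61), and its other probe was at -0.006 with overlapping groups. Rbl1, which encodes p107, had 3 kept probes with changes of -0.10 to 0.09. Rbl2, which encodes p130, was not detected by either of its 2 probes.

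None of the 4 kept kinase genes passed. Cdk1, the mitotic kinase gene, read 1926 and 1908 on the ATRA arrays, against 1611 and 1711 on the DMSO arrays. The groups did not overlap, and the change was 0.22, 1.16-fold (95% interval 1.04 to 1.30, limma adjusted p = 0.23). Without DMSO replicate 2 it passed (change 0.26, adjusted p = 0.0496), and over all alternatives its adjusted p ran from 0.0496 to 0.81. In that setting 4 member probes passed, of Cdk1, E2f2 and E2f3, and 5.17% of all kept probes. The other probes of Cdk1, for the same annotated transcript, read between 94.4 and 107 on every array, near the detection limit. Cdk2, the partner of E-type and A-type cyclins, read 2177 and 2058 with ATRA, against 2018 and 1930 with DMSO, by its brightest probe. Its 4 kept probes had changes of -0.13 to 0.11, with opposite signs, and none passed (limma adjusted p = 0.57 to 0.79). Cdk4, a partner of D-type cyclins, read 2490 and 2548 with ATRA, against 2468 and 2977 with DMSO, and DMSO replicate 2 stood apart (change -0.11, adjusted p = 0.70). Without that array the change on this Cdk4 probe was 0.03. The dimmer kept Cdk4 probe read 347 and 344 with ATRA, against 357 and 359 with DMSO. Its groups did not overlap, with a change of -0.07 (limma adjusted p = 0.87). Cdk7, the kinase that activates other CDKs, was at -0.12, and Cdk6 was detected on 0 of 4 arrays.

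The cyclins did not pass on any kept probe (0 of 16, limma), against 1.58% of all kept probes. Ccnd1, a D-type cyclin gene that answers to growth signals, read 1938 and 2081 on the ATRA arrays, against 1839 and 1923 on the DMSO arrays. Its groups did not overlap on this probe, with a change of 0.10 (95% interval -0.07 to 0.27, limma adjusted p = 0.71), while its other probes were at 0.04 and -0.06. The 3 kept probes of Ccnd2 lay between -0.10 and 0.12 and those of Ccnd3 between -0.26 and -0.05. Ccne1, the E-type cyclin gene, read 662 and 673 with ATRA, against 670 and 606 with DMSO, with overlapping arrays (change 0.08, 95% interval -0.11 to 0.26). Ccne2 was at 0.15 and also overlapped. Ccna2, the S and G2 cyclin gene, was near the detection limit, at 108 and 111 with ATRA, against 106 and 113 with DMSO. Ccnb2, a mitotic cyclin gene, read 90.3 and 91.7 with ATRA, against 88.6 and 88.3 with DMSO, and was detected on 0 of 4 arrays. A probe near background shows no more than that this probe gave no signal. Ccnf, a cyclin of an SCF ubiquitin ligase, was at -0.07. Ccng1, a p53 target, had 3 kept probes between -0.04 and 0.002, while Ccng2 and the germline cyclin gene Ccna1 were detected on 0 of 4 arrays.

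**Figure D4:**
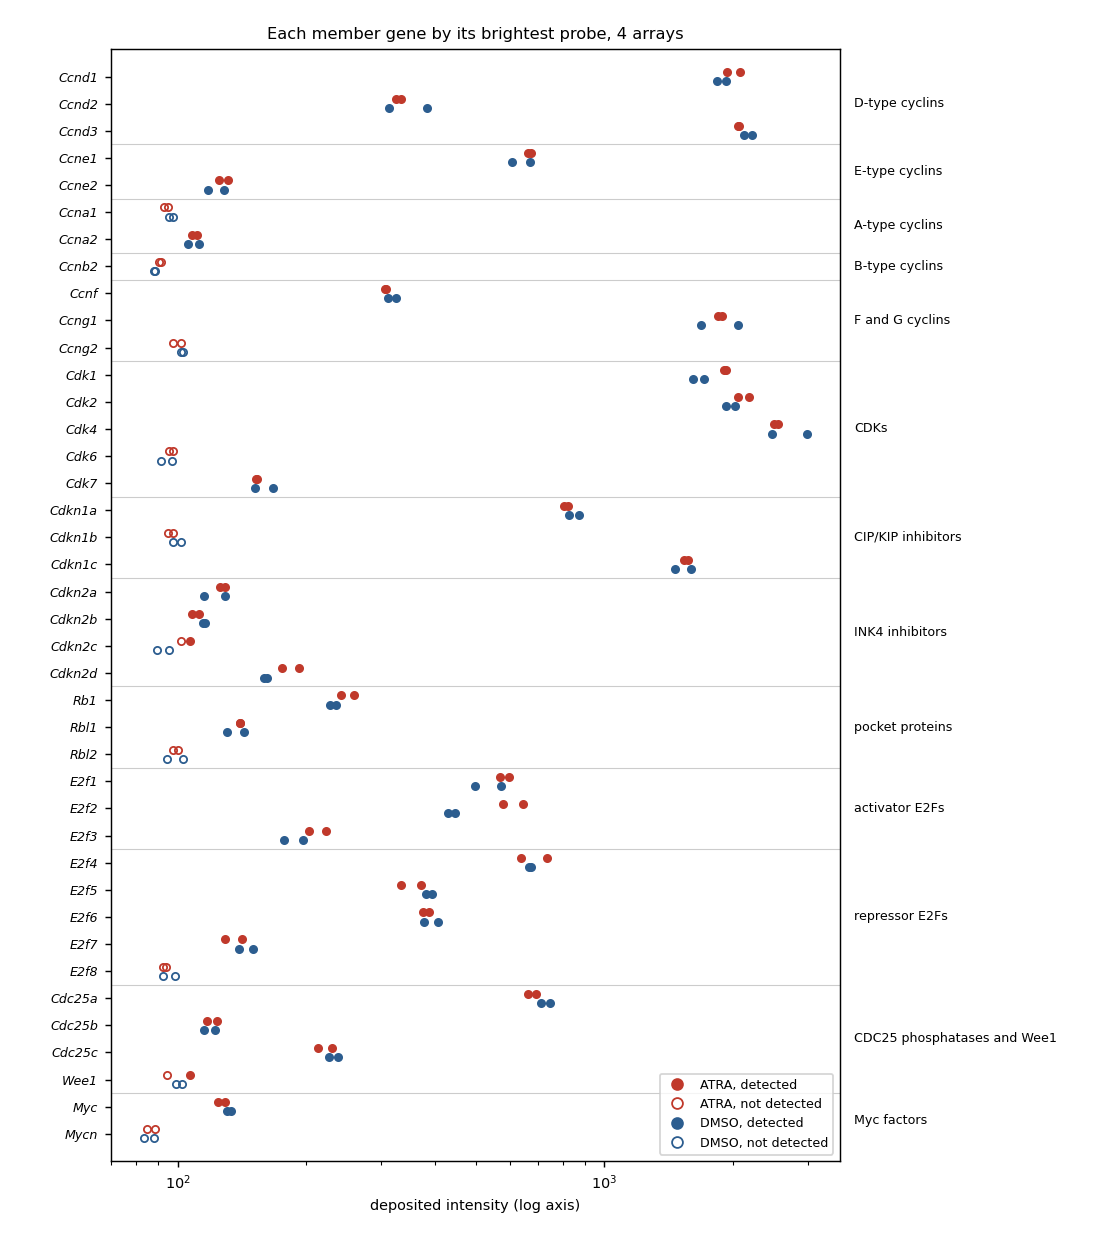
Deposited intensity (horizontal log axis) of each of the 40 member genes with a probe (rows, by family), by its brightest probe on the 2 ATRA arrays (red, upper) and 2 DMSO arrays (blue, lower); hollow points were not detected. The E2f2 groups are clearly apart, and 10 genes have no kept probe; levels of different genes are not comparable.

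Of the CIP/KIP inhibitors, which bind cyclin and CDK together, 2 were kept and neither passed. Cdkn1a, the p21 gene and a p53 target, read 822 and 805 on the ATRA arrays, against 825 and 871 on the DMSO arrays. The groups lay apart by a small margin (change -0.07, 95% interval -0.24 to 0.11, limma adjusted p = 0.85), and its other probes were at -0.12 and 0.11. Cdkn1c, the imprinted p57 gene, read 1538 and 1567 with ATRA, against 1467 and 1594 with DMSO, with a change of 0.02 (95% interval -0.15 to 0.19). All 3 probes of Cdkn1b, the p27 gene, were undetected on every array.

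The INK4 inhibitors, which block CDK4 and CDK6, lay close to the detection limit except for Cdkn2d. Cdkn2d, the p19 INK4d gene, read 193 and 175 on the ATRA arrays, against 160 and 162 on the DMSO arrays. It had the largest change of a member after E2f2, 0.35 (95% interval 0.11 to 0.60), and did not pass (limma adjusted p = 0.18); over all alternatives its adjusted p ran from 0.078 to 0.92. Cdkn2a read 129 and 125 with ATRA, against 129 and 115 with DMSO (change 0.17, adjusted p = 0.76), and without DMSO replicate 2 its change was -0.06. Cdkn2b read 108 and 113 with ATRA, against 115 and 116 with DMSO (change -0.21, adjusted p = 0.70). One probe of Cdkn2c was detected on 1 ATRA array and was not kept, at 102 and 107 with ATRA, against 89.7 and 95.7 with DMSO. A Cdkn2a probe can read 1 or both of the products of that locus, p16 and p19ARF, and the annotation used here does not tell them apart.

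The CDC25 phosphatases, which remove the inhibitory phosphates that Wee1 puts on CDKs, did not pass either. Cdc25a read 662 and 693 on the ATRA arrays, against 746 and 711 on the DMSO arrays. Its groups did not overlap (change -0.12, 95% interval -0.30 to 0.06, limma adjusted p = 0.67), while its other kept probe was at 0.21. Cdc25b was at 0.06, and the kept probes of Cdc25c were at -0.10 and 0.10. Wee1 had no kept probe, with 1 detection on 1 ATRA array. Myc, a driver of growth and of cycle entry, read 124 and 129 with ATRA, against 130 and 133 with DMSO, with groups apart and a change of -0.14 (95% interval -0.43 to 0.15, adjusted p = 0.77). Mycn, its relative in early embryonic tissue, was detected on 0 of 4 arrays by its single probe.

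Genes that work with the members were read from 6 further lists. They hold 94 genes, of which 92 had a probe and 80 were kept. Of the 80 genes 0 passed the limma test, against 1.82% of all kept genes. Of their 151 probes 0 passed, against 1.58% of all kept probes. In lists of this size these counts lie near the background. At an unadjusted p under 0.05 there were 9 of the 80, against 12.4% of all kept genes. Their median change was 0.001 on the log2 scale, with 41 higher and 39 lower. The 6 E2F partners and DREAM or MYB factors lay between -0.03 (Tfdp2) and 0.11 (Rbbp4). Tfdp1, the main dimer partner of E2Fs, read 1450 and 1565 with ATRA, against 1445 and 1560 with DMSO. The 23 DNA replication genes, many of them E2F targets, ran from -0.14 (Orc1) to 0.19 (Rrm2), with a median of 0.002, and the 95% interval of each lay within 1.5-fold. Their largest rise in value, that of Rrm2, a ribonucleotide reductase subunit, had an adjusted p of 0.41.

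In the ubiquitin ligase list of 15 kept genes, Fbxw7, the SCF receptor that marks cyclin E and Myc for destruction, came nearest to the threshold. It read 262 and 259 on the ATRA arrays, against 317 and 304 on the DMSO arrays (change -0.35, limma adjusted p = 0.090), while its other kept probe was at -0.08. The largest positive change there was 0.24, of Skp1 (adjusted p = 0.27). Among 17 other cyclins, CDKs and partners, Cdk12, a transcriptional kinase, was at -0.45 (limma adjusted p = 0.18). Cks1b, a CDK-binding subunit, was detected on both ATRA arrays and neither DMSO array, so it entered the test through the ATRA arrays alone, and it did not pass (limma adjusted p = 0.59). The 8 MAX network genes ran from -0.34 (Mycl, adjusted p = 0.15) to 0.27 (Mnt, a repressor that pairs with MAX, adjusted p = 0.55). The 11 p53 and checkpoint genes had a median of -0.12, from -0.32 (Eda2r, adjusted p = 0.53) to 0.46 (Pmaip1, a p53 target that promotes cell death, adjusted p = 0.24). Of these 11 genes 4 were higher and 7 lower in value, and 2 had an unadjusted p under 0.05 (limma), both higher. The groups did not overlap on 8 of the 11 (72.7%), against 41.2% of all kept genes. Over the 6 lists together they did not overlap on 29 of the 80 genes.

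**Figure D5:**
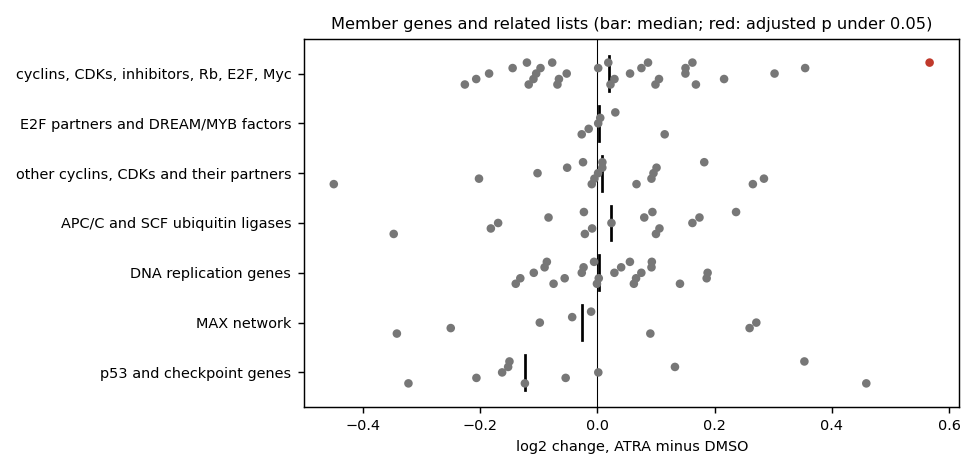
Log2 change, ATRA minus DMSO (horizontal axis), of each kept gene by its brightest probe, for the 30 member genes (top row) and 6 related lists; black bars are medians and red marks a limma adjusted p under 0.05. E2f2, at 0.57, is the only red point, and the list medians lie between -0.12 and 0.02.

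Facts on the arrays bear on all of these values. Between 40.1% and 42.3% of all probes were detected per array, and the lowest detected intensity was 104.4 to 106.3. The median SD between replicates was 0.072 with ATRA and 0.093 with DMSO over kept probes. Cyp26a1, a direct target of retinoic acid used as a check of the labels, read 205 and 191 with ATRA, against 105 and 111 with DMSO. The 8 pluripotency markers were all detected on all 4 arrays. Summed over their probes they read 68274 and 68804 with ATRA, against 69403 and 70269 with DMSO, with 4 of the 8 genes higher and 4 lower in value. Zfp42 and Sox2 fell by 0.40 and 0.39 (limma adjusted p = 0.0041 and 0.019), and Nanog was at 0.20 (adjusted p = 0.25). Of 8 fibroblast markers Col1a2, Dcn, Lum and Postn were undetected, while Acta2, Col1a1, Col3a1 and Thy1 were detected and kept. These 4 ran from -0.15 (Thy1, limma adjusted p = 0.73) to 0.05 (Col1a1, adjusted p = 0.95). The fibroblast list summed to 8637 and 8546 with ATRA, against 9511 and 8786 with DMSO. Of 6 extraembryonic endoderm markers Afp and Sox17 were undetected and 3 were kept. Of these 3, 2 were higher and 1 lower in value, with a median change of 0.12. Gata6, detected on 2 ATRA arrays and 1 DMSO array, rose by 0.75 (limma adjusted p = 0.027). Dab2 was at -0.27 (limma adjusted p = 0.46), and Gata4 and Sox7 are given by these counts only. The endoderm list summed to 1388 and 1377 with ATRA, against 1397 and 1390 with DMSO. Of 5 neural markers Pax6, Sox1 and Neurog2 were undetected. Neurod1 was not kept despite a detection, and Tubb3 was at -0.32, with groups apart (limma adjusted p = 0.53). The neural list summed to 687 and 680 with ATRA, against 698 and 690 with DMSO. The part of these markers in the E2f2 change was not tested.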

How the data were processed

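RNA of the 4 samples was measured on Illumina bead arrays. GenomeStudio is named in the submitters' processing notes, without version or settings. The authors deposited intensity values on a linear scale; each is paired in the deposited table with a detection p-value. The deposited intensity values were already quantile normalized, since sorted values differed by at most 0.228 between arrays, and not background-subtracted (lowest 78.1). The deposited series matrix holds the same intensity values minus 93.5, so it is linear and not centred by probe, with medians of 6.22 to 6.24.

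Here limma 3.58.1 in R 4.3.3 was used: neqc (normexp background from the detection p-values, offset 16, quantile normalization, log2), then lmFit and eBayes with an intensity trend, group as the only term, and Benjamini-Hochberg adjustment over all 19112 kept probes at 0.05. Folds are on the log2(value + offset) scale and understate changes of dim probes. Of 45281 probes, 34885 had 1 symbol, 18 several and 10378 none here; symbols were updated through Entrez identifiers to RefSeq GRCm38.p6 (34807 matched, 0 renamed). A gene is given by its brightest kept probe, other kept probes beside it. The labels do not state whether replicates are separate cultures; p-values rest on the spread of these arrays alone, which may be technical. An exact two-sided permutation test of 2 against 2 arrays cannot go below 0.333 and was not used. The small number of arrays limits precision.

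The members, lists and tests were chosen with earlier results of these data known. Members given with array values were those past the threshold, the 10 with the largest change, and 16 chosen by family, where kept. Array values of Cdkn1c, Ccnb2 and Cdkn2c were added after they were seen. Those of the dimmest kept E2f6 probe are also given outside this choice, and others are given by range. Of each related list the largest rise and fall in value are named, with Tfdp1 added after its values were seen. Alternatives covered background, offset, second quantile step, filters, variance trend, replicate block, the gene's probe and each array left out.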

Additional observations from a re-analysis of the deposited data

How the results depend on the processing

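Over the alternatives, the median change of the 30 member genes ran from -0.055 to 0.052. The median log2 level of these genes on an array had an SD of 0.12 between replicate arrays. That is a spread of levels, not of changes, so it sets no scale for this range. Without the intensity trend 74 probes of the whole array passed and 0 member probes and 0 member genes did, where 302, 2 and 1 had passed. The replicate numbers of the labels were also used as a replicate block: 492 probes of the whole array passed, and of the members again the 2 E2f2 probes. Deviations of same-numbered arrays did not go together (r = -0.003 over kept probes, as a description), so the numbers are not taken to pair the samples. With each array left out in turn, 133 to 956 probes of the whole array passed, 0 to 4 member probes and 0 to 3 member genes. The low end came without ATRA replicate 1 and the high end without DMSO replicate 2, where Cdk1 and E2f3 passed beside E2f2. In every other setting in which a member passed, it was E2f2 alone. Among the named members that did not pass, 5 changed sign in some setting, each time with an array left out. Probes near the detection limit, such as those of Ccna2, Myc, Cdkn2a and Cdkn2b, leave wide intervals. Undetected probes leave Cdkn1b, Cdk6, Rbl2, Ccnb2, E2f8 and Mycn without a test.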

Other observations

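Probes for 1 gene often differed in level and in the sign of their change. Of 15 member genes with more than 1 kept probe, 11 had changes of both signs, and the median range of changes within a gene was 0.21 on the log2 scale. E2f2 had a range of 0.15, from 0.42 to 0.57, with 1 sign. The widest ranges were those of Cdc25a, at -0.12 and 0.21, and of E2f3, at -0.02 and 0.30, and for both genes the choice of probe sets the sign of the value. Cdk1 had 3 probes for 1 annotated transcript, of which 1 read 1611 to 1926 over the 4 arrays and the others 94.4 to 107.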
